A study of Mus musculus with 12 samples.

Results

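The genes described are 10 genes of the Nrf2 pathway, measured in mouse liver under 4 diets. They were chosen by name, as every array probe whose accession RefSeq assigns to Nfe2l2, Keap1, Nqo1, Gclc, Gclm, Hmox1, Txnrd1, Srxn1, Slc7a11 or Gsr. This gave 12 of the 39429 probes tested, with 2 probes each for Gsr and Hmox1 and 1 for each of the others. Of all probes, 27508 could be named, and they covered 20886 genes. A probe is called well above background when the scanner software said so for its spots, and 11 of the 12 probes, covering 9 genes, met this on all 12 arrays. The probe of Slc7a11 met it on no array.

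The mice were C57BL/6N females, 6 weeks old when obtained, and liver RNA was taken after 6 months on a Normal Formula Diet (NFD). Ctrl mice received the NFD with corn starch and sucrose as its carbohydrate, and RS mice the same diet with resveratrol, a plant polyphenol, mixed in. For DJ mice the starch and sucrose gave way to Dongjin rice, and for DJ526 mice to DJ526, a Dongjin line that makes resveratrol in its grain because a resveratrol biosynthesis gene was transferred into it. Each group had 3 mice and 1 array a mouse. DJ526 therefore differs from DJ by a transferred gene as well as by its resveratrol. The amounts of resveratrol in the RS and DJ526 diets are not given in the sources used here, so that whether their doses match is unknown. Cages of several mice were assigned to the diets, and the cage of each mouse is not given. Replicates are separate animals, but the p-values cannot tell diet from cage.

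Nrf2, encoded by Nfe2l2, is a transcription factor for genes that protect cells against oxidants and electrophiles. Keap1 binds it in the cytoplasm and delivers it to a ubiquitin ligase for degradation, until reactive compounds modify Keap1 and Nrf2 accumulates. Nrf2 then pairs with a small Maf protein on the antioxidant response element of its target genes, which in liver include enzymes of glutathione synthesis, the thioredoxin system, quinone reduction and heme breakdown. Much of this control acts on the Nrf2 protein, and the arrays measured RNA only.

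The antioxidant response element is shown here in the member promoters that hold its core, since it is the sequence through which Nrf2 acts. Promoters of 300 bases, 250 before and 50 after a start of transcription, were taken from RefSeq (GRCm38.p6) and searched on both strands for the core TGACNNNGC, the single motif searched. RefSeq entries were at hand for 7 of the 10 genes, with 9 promoters. The core was present in 4 of these 9 promoters and in 12.4% of the 32851 promoters of that length. A match describes the letters and is not a binding site. In Srxn1 the core lay 28 bases after the start and is not printed. The other matches are given below, 5′ to 3′ along the strand of the gene, with the core in capitals.
Nfe2l2, chr2:75704870-75704913, minus strand, core starting 240 bases before the start: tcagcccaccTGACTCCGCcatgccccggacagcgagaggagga
Gclm, chr3:122245398-122245456, plus strand, core on the opposite strand and starting 134 bases before the start: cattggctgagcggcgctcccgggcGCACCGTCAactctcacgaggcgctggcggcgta
Txnrd1, chr10:82859089-82859147, plus strand, the second of its 3 listed promoters, core on the opposite strand and starting 92 bases before the start: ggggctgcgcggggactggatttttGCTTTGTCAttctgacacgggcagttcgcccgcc

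Levels are given on a log2 scale, relative to the array, where 0 stands for its 75th percentile of processed signal, and differences on this scale are log2 fold changes. Levels of different probes are not compared with each other, since probes differ in brightness for reasons other than RNA. On each array 73.0% to 80.8% of spots passed the background criterion, and 0 were saturated. All 10 hepatocyte markers examined, among them albumin and transthyretin, were well above background on all 12 arrays. The arrays lay on 3 slides of 4. Slide 1 held the 3 Ctrl mice and DJ replicate 1, slide 2 carried RS replicates 1 and 2 with DJ replicates 2 and 3, and on slide 3 the 3 DJ526 mice lay beside RS replicate 3. Ctrl and DJ526 never shared a slide, nor did Ctrl and RS, nor DJ526 and DJ. These pairs are linked only through the other groups, and DJ526 is linked to any other slide only through RS replicate 3. RNA came from whole liver, where fewer cells of a type and less RNA per cell cannot be told apart.

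None of the member probes passed the test in any of the comparisons. limma with Benjamini-Hochberg adjustment over all probes (adjusted p threshold 0.05) called 0 of the 12 in each diet set against Ctrl and 0 in DJ526 against DJ. Over all probes it called 0% for RS against Ctrl, 0% for DJ against Ctrl, 0.00507% for DJ526 against Ctrl and 0.0101% for DJ526 against DJ, so that calls were rare everywhere. It also called 0 of the 12 for rice against starch and sucrose (DJ and DJ526 against Ctrl and RS), for resveratrol against none (RS and DJ526 against Ctrl and DJ) and for the effect of resveratrol on rice against its effect on starch, where 0%, 0% and 0% of all probes were called. These comparisons share mice and are not independent of each other.

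At an unadjusted limma p under 0.05 there were 2 member probes in RS against Ctrl, where 6% of all probes were that low, and 1 in DJ against Ctrl, where 5.2% were. There was 1 in DJ526 against Ctrl (10.8% of all probes) and 1 in DJ526 against DJ (9.84%). There were 0 for rice (4.56%), 3 for resveratrol against none (10%) and 1 for the difference between the effects of resveratrol (6.09%). The 3 for resveratrol were both probes of Gsr and the dimmer one of Hmox1. An unpaired t-test, which the methods name, found 1 member probe at that unadjusted threshold in each of the 4 comparisons of single diets, and 0 after adjustment. The methods' Z ratio criterion, which asks for a Z ratio beyond 1.5 with an unadjusted p under 0.05, called 0 of the 12 in these comparisons, against 1.69%, 1.36%, 3.87% and 3.78% of all probes. In DJ against Ctrl the tests picked different genes. The unpaired t-test on Z values gave an unadjusted p of 0.00154 for Txnrd1 (Z ratio -0.63). It gave 0.119 for the brighter probe of Hmox1, the one under 0.05 in limma.

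Without a term for the slide, the intervals of the brightest probes of the detected genes stayed within a log2 fold change of 1 either way in the comparisons of single diets. The dimmer probe of Hmox1 went beyond this in DJ526 against DJ, at 1.15-fold to 2.02-fold. Over the 9 detected genes, each read by its brightest probe, the 95% intervals of limma lay between 0.642-fold and 1.67-fold for RS against Ctrl, between 0.596-fold and 1.56-fold for DJ against Ctrl and between 0.546-fold and 1.56-fold for DJ526 against Ctrl. They lay between 0.577-fold and 1.49-fold for DJ526 against DJ. These are intervals of single genes, not adjusted for their number, and they do not hold with the slide as a block. There Srxn1 in DJ526 against Ctrl was -1.22 ± 0.51 (SE; limma unadjusted p = 0.0413, adjusted p = 0.408), while the other estimates of the 9 genes in these comparisons stayed within 1 either way. The median log2 fold change of the 9 genes was -0.09, -0.01, -0.14 and -0.03 in the same order, beside 0.03, -0.01, 0.02 and 0.04 over all probes. In RS 2 of the 9 genes averaged above Ctrl, in DJ 4 and in DJ526 2. These medians and counts are from the fit without a term for the slide. With the slide as a block, Gclc, Gclm, Txnrd1 and Gsr turned positive in DJ526 against Ctrl and Nqo1 negative. Gclc, Gclm and Txnrd1 also turned positive in RS against Ctrl, and Nqo1 negative. The estimates then ran from -1.22 to 0.76 in DJ526 against Ctrl and from -0.87 to 0.41 in RS against Ctrl. Of those that turned, Gclc had the lowest limma unadjusted p, 0.138 in DJ526 and 0.304 in RS. None of the turned values was therefore distinguished from 0.

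**Figure D1:**
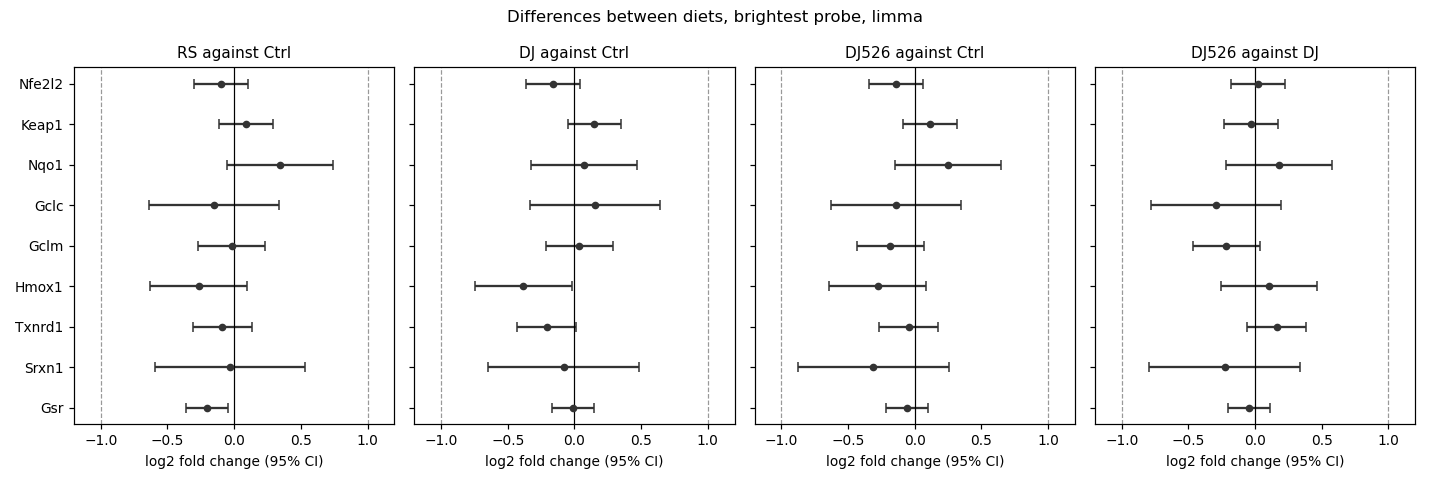
Log2 fold change of the 9 detected Nrf2 pathway genes in 4 comparisons of diets, by the brightest probe of each gene. Points are limma estimates with 3 mice a group, bars are 95% intervals, and dashed lines stand at a log2 fold change of 1 either way; in this fit, which has no term for the slide, no interval reaches a dashed line, whereas with the slide as a block Srxn1 in DJ526 against Ctrl is at -1.22.

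Nfe2l2, the gene of the transcription factor itself, was among the steadier members. Its levels were 2.82, 3.01 and 3.05 in Ctrl, 2.72, 3.06 and 2.80 in RS, 2.77, 2.85 and 2.77 in DJ and 2.80, 2.80 and 2.85 in DJ526. The groups overlapped, and the whole range over the 12 mice was 0.34. Its lowest p was for DJ against Ctrl, where the log2 fold change was -0.16 ± 0.09 (SE, 3 mice a group; limma unadjusted p = 0.105, adjusted p = 0.990), an interval of 0.777-fold to 1.03-fold.

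Keap1, the inhibitor that marks Nrf2 for degradation, stood at 2.03, 2.29 and 2.27 in Ctrl, at 2.37, 2.23 and 2.24 in RS, at 2.36, 2.28 and 2.40 in DJ and at 2.16, 2.34 and 2.43 in DJ526. The lowest value was Ctrl replicate 1, and the groups overlapped. For DJ against Ctrl the log2 fold change was 0.15 ± 0.09 (SE; limma unadjusted p = 0.129, adjusted p = 0.993), an interval of 0.965-fold to 1.28-fold, and with another background correction it was -0.01. Without Ctrl replicate 1 it was 0.07.

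Nqo1, which reduces quinones and is widely used as a readout of Nrf2 activity, was -1.34, -0.70 and -1.01 in Ctrl and -0.82, -0.86 and -0.34 in RS. It was -1.09, -0.97 and -0.78 in DJ and -0.91, -0.60 and -0.79 in DJ526. The highest mouse was RS replicate 3 and the lowest Ctrl replicate 1, and every pair of groups overlapped. Resveratrol against none gave 0.26 ± 0.13 (SE; limma unadjusted p = 0.0667, adjusted p = 0.528), an interval of 0.985-fold to 1.46-fold. The same value was -0.21 with the slide as a block. Within slide 3 the 3 DJ526 mice averaged 0.43 below the single RS mouse, and within slide 1 the single DJ mouse stood 0.07 below the 3 Ctrl mice.

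Glutathione synthesis starts with glutamate-cysteine ligase, whose catalytic subunit is Gclc and whose modifier subunit is Gclm. Gclc stood at 4.46, 4.28 and 3.87 in Ctrl, at 4.60, 3.84 and 3.71 in RS, at 4.62, 4.27 and 4.19 in DJ and at 4.11, 3.99 and 4.10 in DJ526. Mice of 1 diet differed widely in RS and little in DJ526. DJ526 did not overlap DJ, but it lay within the range of Ctrl and of RS. The lowest p was for resveratrol against none, with a log2 fold change of -0.22 ± 0.16 (SE; limma unadjusted p = 0.181, adjusted p = 0.663), an interval of 0.675-fold to 1.09-fold. It was 0.37 with the slide as a block, -0.36 without RS replicate 1 (limma unadjusted p = 0.0100, not called after adjustment) and -0.14 without RS replicate 3.

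Gclm was 1.54, 1.13 and 1.38 in Ctrl, 1.48, 1.32 and 1.19 in RS, 1.47, 1.31 and 1.36 in DJ and 1.22, 1.03 and 1.24 in DJ526. All 3 DJ526 mice were below all 3 DJ mice, as they were for Gclc. For Gclm the log2 fold change was -0.22 ± 0.11 (SE; limma unadjusted p = 0.0830, adjusted p = 0.557), an interval of 0.723-fold to 1.02-fold. Between DJ526 and DJ 3 of the 12 member probes did not overlap, where 18.4% of all probes did not, and with the slide as a block the difference was 0.04 for Gclm and 0.34 for Gclc, where it had been -0.29. With the replicate number as a block, the Gclm difference had a limma unadjusted p of 0.0371 and was not called. The numbers were not shown to pair the mice. The summed level of hepatocyte markers also separated these groups, although limma called 0 of the 10. Of these, 4 had an unadjusted limma p under 0.05, and the sum, in multiples of the 75th percentile, was 2653 to 2747 in DJ and 2250.2 to 2412 in DJ526, without overlap. The DJ sum was also above that of every Ctrl mouse (2344 to 2588) and every RS mouse (2383 to 2576). In DJ against Ctrl limma called 0 of the 10 markers, and 1 had an unadjusted p under 0.05. The part of this difference in the results for DJ526 against DJ and for DJ against Ctrl was not tested.

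Slc7a11, which imports the cystine used for glutathione, has only an upper limit in these livers. Its probe passed the background criterion on 0 of 12 arrays, and no fold change is given.

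Gsr, glutathione reductase, regenerates reduced glutathione with NADPH, and it gave the lowest p in RS against Ctrl. Its brighter probe read 3.11, 3.22 and 3.09 in Ctrl, 3.09, 2.85 and 2.87 in RS, 3.13, 3.14 and 3.11 in DJ and 3.05, 3.08 and 3.12 in DJ526. RS replicates 2 and 3 were the lowest of the 12 mice, while RS replicate 1 stood just under the lowest Ctrl mouse. The dimmer probe read 1.74, 1.81 and 1.70 in Ctrl, 1.58, 1.41 and 1.36 in RS, 1.67, 1.61 and 1.67 in DJ and 1.56, 1.68 and 1.69 in DJ526. All 3 RS mice were below all 3 Ctrl mice on both probes, which read the same gene in the same mice and are not independent.

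RS against Ctrl gave a log2 fold change of -0.20 ± 0.07 on the brighter probe of Gsr (SE; limma unadjusted p = 0.0159, adjusted p = 0.696) and of -0.30 ± 0.07 on the dimmer one (unadjusted p = 0.00170, adjusted p = 0.484). These correspond to 0.868-fold (95% interval 0.777 to 0.968) and 0.811-fold (0.725 to 0.907). Neither passed the adjusted threshold. They were the 2 of 12 member probes without overlap between RS and Ctrl, where 10.2% of all probes had none. Leaving out any 1 mouse left the difference between -0.28 and -0.16 on the brighter probe and between -0.37 and -0.26 on the dimmer one. With DJ and RS exchanged, as a supplementary sample table has their arrays, the difference was -0.01 and -0.10. A block for the slide gave -0.17 and -0.22 (limma unadjusted p = 0.244 and 0.127, adjusted p = 0.757 and 0.634).

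In DJ526, the other diet with resveratrol, Gsr was -0.05 relative to DJ on the brighter probe (0.868-fold to 1.08-fold) and -0.01 on the dimmer one (0.890-fold to 1.11-fold). The effect of resveratrol on rice minus that on starch was 0.16 ± 0.10 on the brighter probe (SE; limma unadjusted p = 0.148, adjusted p = 0.915) and 0.29 ± 0.10 on the dimmer one (unadjusted p = 0.0160, adjusted p = 0.711). A difference between the 2 effects was thus not called. For resveratrol against none, the values were -0.13 ± 0.05 and -0.15 ± 0.05 (SE; limma unadjusted p = 0.0312 and 0.0124, adjusted p = 0.458 and 0.380), or -0.06 and -0.04 in the fit with a slide block.

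Gsr varied less between mice of a diet than most of the array. Its pooled SD within groups was 0.077 on the brighter probe and 0.076 on the dimmer one, and 6.30% and 5.85% of the 27330 probes well above background on all arrays had a smaller SD. The median SD over these probes was 0.191.

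**Figure D2:**
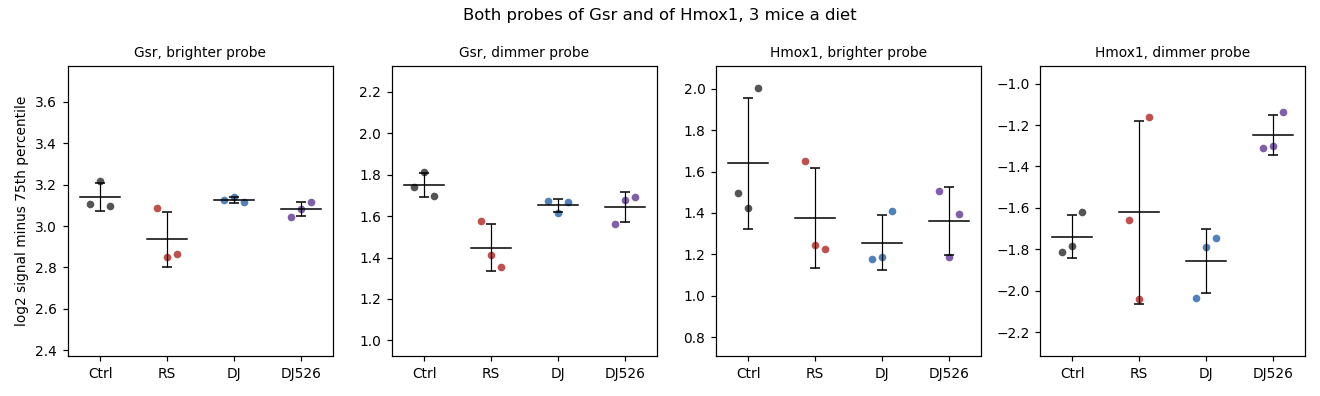
Levels of both probes of Gsr and of Hmox1 in each mouse by diet, as log2 signal relative to the 75th percentile; points are mice in replicate order, lines are means and bars are SDs of 3 mice. The RS mice are below the Ctrl mice on both Gsr probes, whereas the Hmox1 probes differ, with DJ526 averaging 0.28 below Ctrl on the brighter probe and 0.49 above it on the dimmer one.

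Txnrd1, cytosolic thioredoxin reductase, keeps thioredoxin reduced. Its levels were 3.10, 3.08 and 3.12 in Ctrl, 3.25, 2.85 and 2.93 in RS, 2.95, 2.88 and 2.85 in DJ and 2.92, 3.06 and 3.18 in DJ526. The 3 Ctrl mice were close together and above all 3 DJ mice, whereas RS and DJ526 spanned both. DJ against Ctrl gave -0.21 ± 0.10 (SE; limma unadjusted p = 0.0640, adjusted p = 0.961), an interval of 0.742-fold to 1.01-fold. Within slide 1 the single DJ mouse stood 0.15 below the mean of the 3 Ctrl mice.

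Srxn1, sulfiredoxin, repairs overoxidised peroxiredoxins, and it was the most variable member. It read 2.38, 2.98 and 2.68 in Ctrl, 2.87, 2.36 and 2.72 in RS, 2.06, 2.76 and 2.98 in DJ and 1.98, 2.70 and 2.43 in DJ526. All groups overlapped, and the mice of a single diet differed by more than the group means did. Its pooled SD was 0.361, and 83.4% of the detected probes had a smaller one. DJ526 against Ctrl gave -0.31 ± 0.26 (SE; limma unadjusted p = 0.252, adjusted p = 0.690), an interval of 0.546-fold to 1.19-fold, the widest among the members in that comparison; with the slide as a block the value was -1.22. Without DJ526 replicate 1 it was -0.11, and without Ctrl replicate 2 it was -0.16.

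Hmox1, heme oxygenase 1, breaks down heme and is also regulated by Bach1, which competes with Nrf2 at shared sites. On its brighter probe the levels were 1.49, 1.42 and 2.00 in Ctrl, 1.65, 1.25 and 1.22 in RS, 1.18, 1.19 and 1.41 in DJ and 1.51, 1.19 and 1.39 in DJ526. Ctrl replicate 3 was the highest of the 12 mice. DJ lay below Ctrl without overlap, by -0.38 ± 0.16 (SE; limma unadjusted p = 0.0405, adjusted p = 0.950), an interval of 0.596-fold to 0.986-fold. Without Ctrl replicate 3 the difference was -0.20. Between DJ and Ctrl 3 of the 12 member probes did not overlap, those of Hmox1 and Txnrd1 and the dimmer one of Gsr, where 9.36% of all probes did not.

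Heme oxygenase 1 is strongly expressed by liver macrophages, so the Kupffer cell markers were read beside it. All 10 of the 11 listed markers that had a named probe were well above background on every array, and 0 of them were called by limma, or had an unadjusted p under 0.05, in DJ against Ctrl. Their summed level, in multiples of the 75th percentile, was 94.3 to 164 in Ctrl, 78.4 to 109 in RS, 77.5 to 114 in DJ and 75.1 to 113 in DJ526. The highest of the 12 mice was again Ctrl replicate 3, at 164. The part of these cells in the Hmox1 level was not tested.

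The dimmer probe of Hmox1 gave another pattern. It read -1.81, -1.78 and -1.62 in Ctrl, -1.66, -2.04 and -1.16 in RS, -2.04, -1.79 and -1.74 in DJ and -1.31, -1.30 and -1.14 in DJ526. The 3 DJ526 mice were above every Ctrl and every DJ mouse, and RS replicate 3, the RS mouse on the slide of the DJ526 mice, stood with them. DJ526 gave 0.49 ± 0.19 against Ctrl and 0.61 ± 0.19 against DJ (SE; limma unadjusted p = 0.0230 and 0.00745, adjusted p = 0.384 and 0.358), and resveratrol against none gave 0.36 ± 0.13 (unadjusted p = 0.0184, adjusted p = 0.402). These became -0.47, -0.17 and -0.28 with the slide as a block. Within slide 3 the DJ526 mice averaged 0.09 below RS replicate 3. On this probe diet and slide cannot be told apart, and no direction is given for Hmox1 in DJ526. Between DJ526 and Ctrl 2 of the 12 member probes did not overlap, this one and the dimmer one of Gsr (DJ526 lower, -0.11), where 20.6% of all probes did not.

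**Figure D3:**
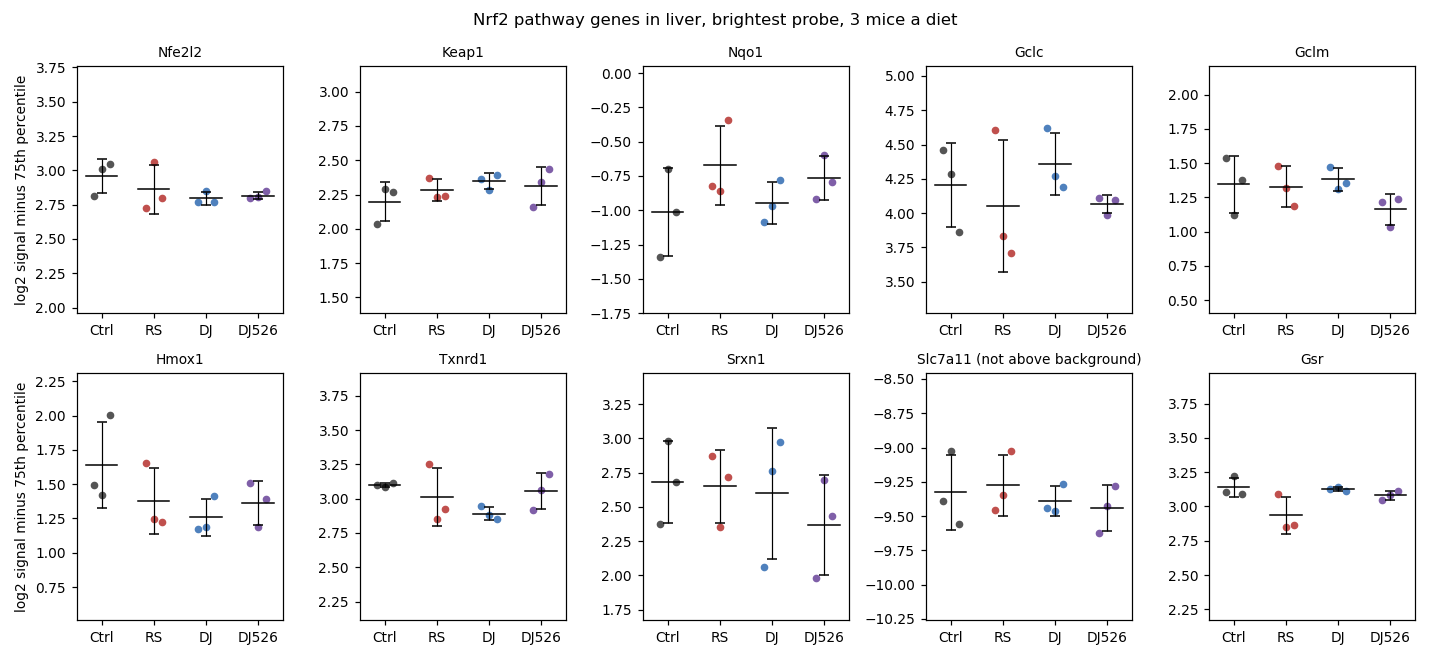
Level of each Nrf2 pathway gene in each mouse by diet, from its brightest probe, as log2 signal relative to the 75th percentile; every panel spans the same height. Points are mice in replicate order, lines are means and bars are SDs of 3 mice; Srxn1 and Gclc scatter most within a diet, Gsr least, and the probe of Slc7a11 did not pass the background criterion.

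Of the 36 pairs among the 9 detected genes, 3 had a Pearson r above 0.5 and 2 below -0.5 over the 12 mice, with a median of 0.09. With the diet means removed, 8 pairs were above 0.5 and 3 below -0.5, with a median of 0.11. Across all mice, the lowest was Nqo1 with Gclm (Pearson r = -0.74, two-sided permutation p = 0.00473; Spearman rho = -0.74, permutation p = 0.00742), so that mice with more Nqo1 had less Gclm. Adjusted over the 36 pairs these p-values were 0.170 and 0.267 (permutation test), and the relation did not pass. Without the 2 mice farthest from the median of Nqo1 r was -0.73. It was -0.87 with the diet means removed and -0.63 with the slide means removed, and a slide of 4 mice was too few for a value of its own.

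Among the genes of glutathione, Gclc and Gsr had r = 0.65 (permutation p = 0.0214; Spearman rho = 0.64, permutation p = 0.0304; adjusted p = 0.385 and 0.548), 0.76 without the 2 farthest mice and 0.59 with the slide means removed. The 2 ligase subunits, Gclc and Gclm, had r = 0.58 (permutation p = 0.0484; Spearman rho = 0.51, permutation p = 0.0929; adjusted p = 0.482 and 0.622). Their Pearson r was 0.35 without the 2 mice farthest from the median of Gclc. It was 0.56 with the diet means removed and 0.40 with the slide means removed.

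Over all 15582 other named genes detected on every array, the genes whose levels across the 12 mice were most like those of Nfe2l2 were Enpep (Pearson r = 0.94), Eef1e1 (0.91) and Epn2 (0.91). For Nqo1 they were Rdh19 (0.88), Atp5o (0.86) and Eprn (0.86). None of these is a member. The r values describe the closest of many genes over mice that share slides and diets.

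The other genes of the pathway were read from 8 lists, of Nrf2 regulators, glutathione, thioredoxin and NADPH enzymes, conjugation and reduction targets, export transporters, genes of heme and iron, and targets of Atf4, which shares Slc7a11 with Nrf2. Of 102 listed genes 100 had a named probe, and 98 were well above background on all arrays. limma called 0 of the 100 in each comparison. At an unadjusted p under 0.05, 1 was higher and 3 lower in RS than in Ctrl, 4 and 1 in DJ, and 4 and 3 in DJ526. Between DJ526 and DJ it was 3 and 3, for rice 3 and 0, for resveratrol against none 3 and 4, and for the difference between its effects 1 and 3. These totals, 3 to 7 of 100, stand beside the 4.56% to 10.8% of all probes given above. The genes named below were picked for an unadjusted p under 0.05 and no overlap between the groups compared. Their lack of overlap follows from that choice and is no further result.

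Among the regulators, 19 genes that include the small Mafs, Bach1 and the parts of the ubiquitin ligases, Gsk3b, a kinase that promotes Nrf2 degradation, was -0.22 ± 0.10 in RS against Ctrl (SE; limma unadjusted p = 0.0390, adjusted p = 0.804) without overlap. With the slide as a block this was 0.08. Rbx1, the RING subunit of the ligase that Keap1 serves, was -0.16 ± 0.05 in DJ526 against DJ (SE; limma unadjusted p = 0.0158, adjusted p = 0.429).

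Of the 14 glutathione enzymes, Glo1, which detoxifies methylglyoxal with glutathione, stood lower in RS, as Gsr did. It read 4.97, 4.91 and 4.95 in Ctrl and 4.69, 4.73 and 4.68 in RS, so that the mice of each diet were close together and the diets apart. The difference was -0.25 ± 0.06 (SE; limma unadjusted p = 0.00293, adjusted p = 0.527), and -0.07 with the slide as a block. Glrx2, mitochondrial glutaredoxin, was -0.22 in RS and -0.27 in DJ526 against Ctrl (limma adjusted p = 0.828 and 0.369), and 0.0024 and -0.08 with the slide as a block. Cbs, which makes cystathionine on the way to cysteine, was 0.41 in DJ and 0.40 in DJ526 against Ctrl (limma adjusted p = 0.939 and 0.439). With the slide as a block the values of Cbs were 0.21 and -0.37, and they were 0.27 without DJ replicate 2 and 0.24 without DJ526 replicate 3.

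Slc3a2, the heavy chain that Slc7a11 needs at the membrane, was 2.11, 2.15 and 2.16 in Ctrl and 2.50, 2.36 and 2.47 in DJ526. The groups did not overlap, and the difference was 0.31 ± 0.12 (SE; limma unadjusted p = 0.0303, adjusted p = 0.409). With the slide as a block it was 1.02 (limma unadjusted p = 0.000161), where 0 of all probes were called in this comparison. That value depends on DJ replicate 1 and RS replicate 3, the arrays that link the slides of Ctrl and DJ526 to the others. Ggct, which breaks down gamma-glutamyl peptides, was -0.47 in DJ526 against DJ (limma adjusted p = 0.472). None of the 11 thioredoxin enzymes had an unadjusted limma p under 0.05 in any comparison. Of the 7 NADPH enzymes Pgls, of the pentose phosphate pathway, was -0.16 in DJ526 against Ctrl (limma adjusted p = 0.404), and -0.33 with the slide as a block.

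Abcc4, an export pump for organic anions and bile acids, had the lowest p of the listed genes in RS against Ctrl. It read -1.18, -1.65 and -1.69 in Ctrl, -0.14, -0.87 and -0.75 in RS, -1.07, -1.15 and -1.33 in DJ and -1.27, -0.78 and -1.19 in DJ526. The RS mice were above every Ctrl mouse. Their mean was higher by 0.92 ± 0.21 (SE; limma unadjusted p = 0.000995, adjusted p = 0.437), and by 1.17 with the slide as a block (unadjusted p = 0.0182). Among the conjugation and reduction targets, Gsta4, a glutathione transferase for lipid aldehydes, was 0.91, 0.76 and -0.42 in DJ and 1.14, 1.23 and 1.33 in DJ526. DJ replicate 3 was the lowest of all mice, and the difference was 0.82 ± 0.27 (SE; limma unadjusted p = 0.0113, adjusted p = 0.404), or 0.40 without that mouse. Cbr3, a carbonyl reductase, was -0.36 in DJ526 against Ctrl (limma adjusted p = 0.405), -0.05 with the slide as a block and -0.20 without Ctrl replicate 2.

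In the list of heme and iron, Hp, the plasma protein haptoglobin that binds free hemoglobin, was 0.22 in DJ against Ctrl and -0.31 in DJ526 against DJ (limma adjusted p = 0.929 and 0.326), the latter -0.12 with the slide as a block. Of the Atf4 targets Sesn2, a stress-induced inhibitor of mTORC1, was 0.60, 0.52 and 0.31 in Ctrl, 0.85, 0.80 and 1.02 in DJ and 0.86, 0.64 and 0.72 in DJ526. Both rice groups were above every Ctrl mouse, DJ526 narrowly. The means were higher by 0.41 ± 0.11 in DJ and 0.26 ± 0.11 in DJ526 (SE; limma unadjusted p = 0.00300 and 0.0346, adjusted p = 0.749 and 0.425), the latter 0.40 with the slide as a block.

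The median log2 fold change of each list is given as a description, without a test. The median over the 10 Atf4 targets was 0.15 for RS, 0.29 for DJ and 0.26 for DJ526 against Ctrl, and -0.22 for DJ526 against DJ. Over the 7 NADPH enzymes it was -0.23, -0.18 and -0.26 against Ctrl and 2.5e-05 for DJ526 against DJ. Over the 5 export transporters it was 0.17, 0.10, 0.17 and 0.10 in that order. In the other 5 lists the medians of these comparisons lay between -0.09 and 0.10. Over all probes they were 0.03, -0.01, 0.02 and 0.04.

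**Figure D4:**
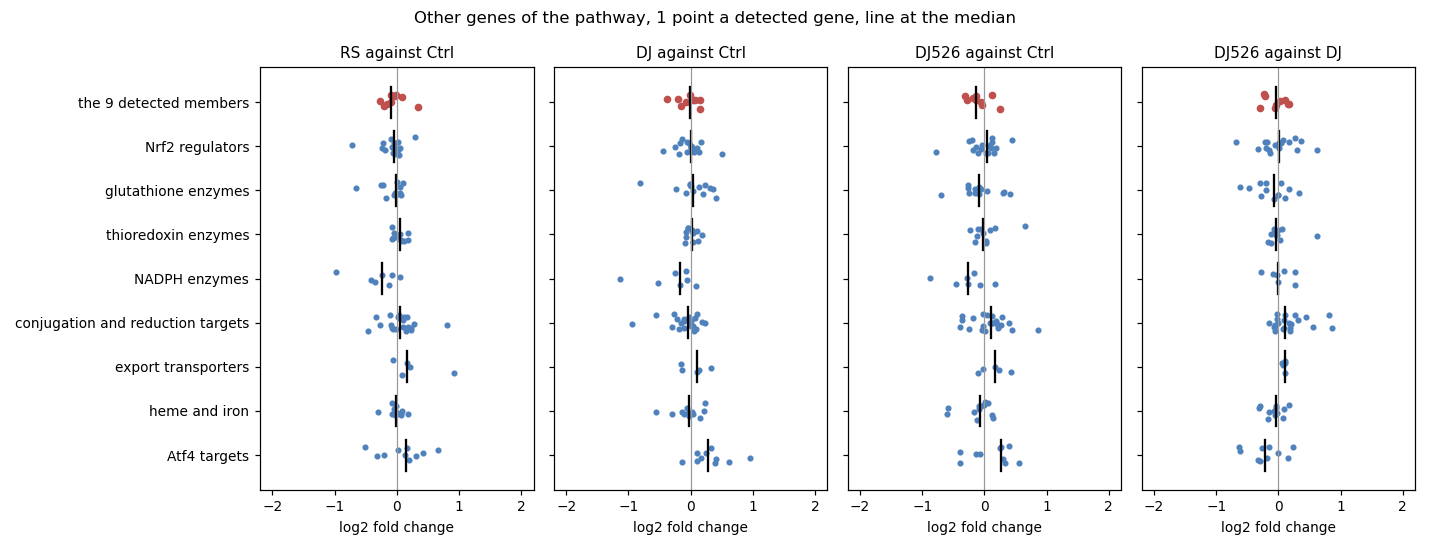
Log2 fold change of each detected gene of the 8 lists of other pathway genes, below the 9 detected members, in 4 comparisons of diets. Each point is the brightest probe of a gene, with height within a row spread only for sight, and lines are medians. The medians of the NADPH enzymes lie between -0.26 and -0.18 in the 3 comparisons against Ctrl, which share the same Ctrl mice. No gene shown passed the adjusted threshold.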

How the data were processed

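Liver RNA of 12 mice was hybridised to 12 one-colour Agilent arrays, 1 a mouse. The authors deposited the scanner intensity of each spot, with a processed signal already corrected for background, as Feature Extraction (version 11.5.1.1, per the file headers) writes it. They also deposited 1 normalized intensity a probe, which is the processed signal times 1 factor an array (0.959 to 1.08) for 99.8% to 99.9% of probes (tolerance 0.0001).

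Control spots and 93 to 197 spots an array marked as outliers were left out, spots of a probe were averaged, and log2 of the 75th percentile was subtracted. Probes were named through their accession in RefSeq. A model with 1 mean a group and a variance trend was fitted in limma (3.58.1, R 4.3.3) (8 residual degrees of freedom), with Benjamini-Hochberg adjustment over 39429 probes, and checked on simulated data. Correlations between members used 100000 permutations of the mice (Python 3.11.15, numpy 2.4.6, pandas 2.3.3). The number of arrays limits the precision.

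Groups follow the labels of the arrays. A supplementary sample table pairs array identifiers with RS and DJ the other way round, and an exchange of both was an alternative. The other alternatives were other background corrections, scalings, filters and tests, the deposited table, the slide or the replicate number as a block, and leaving out each mouse. The 10 members, the lists and the tests were chosen with earlier results of these data known. Each member was given full statistics where its brightest probe had an unadjusted p under 0.05, or else at its lowest p. From each list, up to 3 genes a comparison were named, those with the largest change at an unadjusted p under 0.05, well above background and without overlap between the groups compared. Replicate numbers did not pair the mice across the 4 groups (6 of 18 same-numbered pairs deviated together, r above 0.1). All 3 same-numbered pairs of DJ and DJ526 were above 0.1 (0.164 to 0.287), and the block is given beside Gclm. Some differently numbered pairs were above it too. DJ replicate 2 had 0.259 with DJ526 replicate 3 and 0.167 with DJ526 replicate 2. RS replicate 3 and DJ526 replicate 2, on 1 slide, had 0.444. A pairing of DJ with DJ526 was thus not established. Leaving out single mice for the list genes was added after the data were seen. Blood, behaviour and PCR measurements were not used here.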

Additional observations from a re-analysis of the deposited data

How the results depend on the processing

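Under all 25 alternatives, leaving out each mouse included, 0 member probes were called in every comparison run, also with the replicate block (0). Same-numbered mice of different groups deviated together (r above 0.1) in 6 of 18 pairs (-0.35 to 0.41), among them all 3 of DJ and DJ526. Some differently numbered pairs did so too, such as RS replicate 3 with DJ526 replicate 2 (0.444), so that the numbers were not shown to pair the mice. Of 365 alternative log2 fold changes of 16 named results, 354 kept their direction without being called, and 11 turned. Many of the 365 could not turn. Another test, variance trend or probe filter leaves the estimate itself unchanged. So do the replicate block and leaving out a mouse of a group not compared. The 354 is therefore no measure of how firm the directions are. With the slide as a block, Nqo1 and Gclc for resveratrol against none became -0.21 and 0.37, Gclm in DJ526 against DJ 0.0434, and the dimmer probe of Hmox1 -0.47 in DJ526 against Ctrl, -0.17 in DJ526 against DJ and -0.28 for resveratrol against none. With DJ and RS exchanged, resveratrol against none became -0.0128 for Nqo1, 0.0853 for Gclc, and 0.0663 and 0.0483 for the brighter and dimmer probes of Gsr. With normexp background correction Keap1 in DJ against Ctrl was -0.0148. No cause was tested. Without RS replicate 3 limma called 173 probes over the whole array in DJ526 against Ctrl and 107 in DJ526 against DJ, where it had called 2 and 4, none of them a member. Quantile scaling gave 9 and 27, the replicate block 0 and 0, and the slide as a block 11 in DJ against Ctrl (0 before) and 17 for the difference between the effects of resveratrol (0 before). Only the probe of Slc7a11 failed the background criterion among the members, but the background correction changed others too. With normexp, 5 member probes had an unadjusted limma p under 0.05 in RS against Ctrl (2 before), beside 3124 of 39348 probes. In DJ against Ctrl it was 4 (1 before), beside 2904 of 39347, and for resveratrol against none 2 (3 before).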
